A study of Drosophila melanogaster
Mus musculus with 6 samples.

Results

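Abrupt steps of H3K36me2 between neighbouring 10 kb rows of the mouse genome were collected in C3H10T1/2 cells, mesenchymal progenitors derived from C3H mouse embryos. A step was a pair of adjacent 10 kb rows on chromosomes 1 to 19 in which the wild-type (WT) H3K36me2 library held 150 scaled reads or more in one row, the high row, and fewer than 50 in the other, the low row. The rule found 751 such pairs among 228423 adjacent autosomal pairs, or 3.29 steps per 1000 pairs. They used 634 distinct low rows and 741 distinct high rows, because 117 low rows and 10 high rows each belonged to a step on either side, and steps that share a row are not independent of each other. Scaled reads are reads multiplied by 1 factor per library, and all positions are in mm9.

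The study expressed FLAG-HA-tagged histone H3.1 stably in these cells, either WT or with lysine 36 changed to methionine (K36M), at passage 10 to 15, with chromatin of Drosophila S2 cells added as an external reference. The cells also carry their own histone genes, so both lines contain untagged H3. H3K36me2 and H3K27me3 immunoprecipitates of both lines were analysed, with 1 library per mark and line, and the 2 input libraries were not analysed here. Without replicates no test between the lines was possible, so every value below describes these 4 libraries, the intervals are 95% intervals that cover counting error only, and the labelled cell type could not be checked in a table of genomic rows. The libraries held 29817968 to 59618463 reads.

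H3K36me2 is deposited mainly by the NSD family of methyltransferases over broad intergenic and genic domains, and the K36M histone is known to inhibit H3K36 methyltransferases. H3K27me3 is deposited by Polycomb repressive complex 2, whose activity on a histone tail is hindered when lysine 36 of that tail is methylated. The border of an H3K36me2 domain is therefore a place where both marks can be followed from one chromatin state into the other.

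Most of the steps were not borders of wide domains. The row beyond the low row was back at 150 scaled reads or more in 234 of the 724 steps where it was measured, lay between 50 and 150 in 335, and remained under 50 in 155. The 234 steps were the sides of 117 single low rows that had a high row on each flank. Median WT H3K36me2 was 137 scaled reads in the tenth row on the low side, 106 in the second, 40.1 in the low row, 191 in the high row and 171 in the tenth row on the high side. Away from the step, both sides thus lay above the autosomal median of 102. A step was called sustained if the mean of the first 3 rows was at 150 or more on the high side and under 50 on the low side, and 77 of 751 steps (10.3%) met this, 700 having 3 rows on each side. The condition is on means, so a lone high row can meet it if its value is large. The high row was above 1000 scaled reads at 8 of the 77. The regions are therefore called steps here and not domain edges.

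The low rows were poor in reads in every library. Of 634 distinct low rows, 324 (51.1%) held fewer than 20 reads in at least 1 of the 4 libraries, against 11.8% of all autosomal 10 kb rows and 9.45% of the high rows. In 4 low rows no library had a read. For H3K36me2 the median low row held 63 reads in the WT line and 36 in the K36M line, and for H3K27me3 33 and 26. The median high row held 300 and 111 reads of H3K36me2 and 84 and 103 of H3K27me3. The part that low coverage of a row plays in the steps was not tested, since no input was used. Results are given with and without the 414 steps in which either row had fewer than 20 reads in a library.

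**Figure D1:**
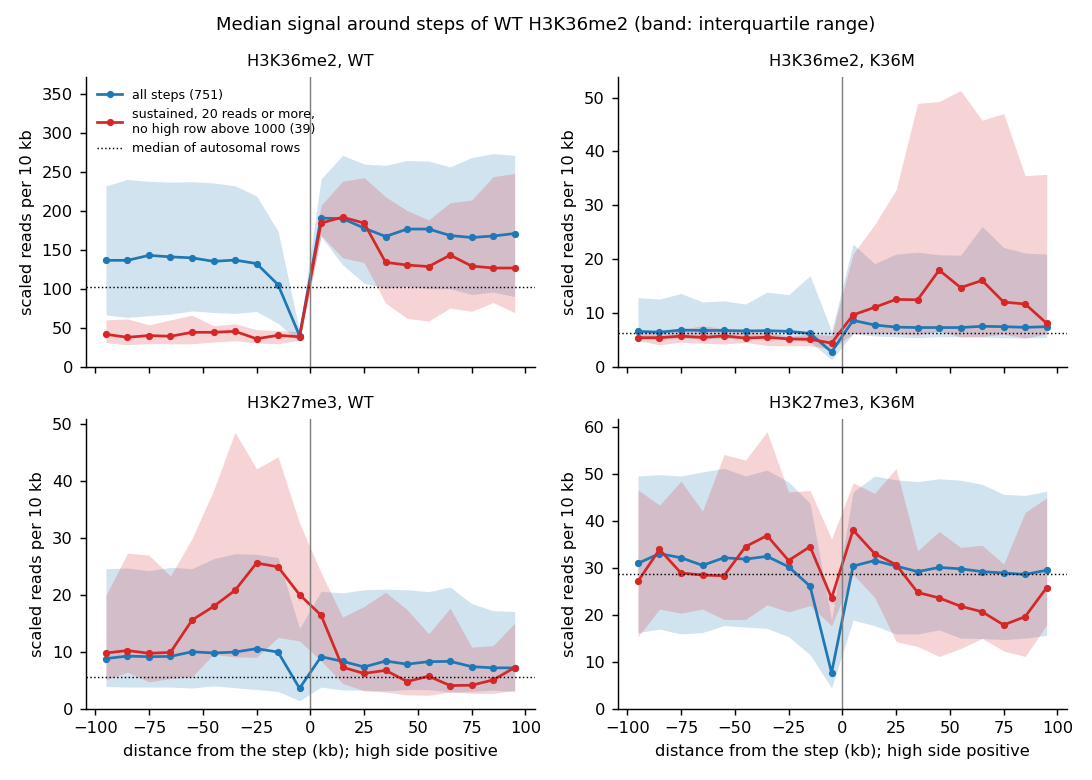
Median scaled reads per 10 kb row (vertical axes) against distance from the step in kb (horizontal axes, high side positive) for each library, for all 751 steps (blue) and for the 39 steps that were sustained, had at least 20 reads in both rows in every library and had no high row above 1000 (red). Bands are interquartile ranges and dotted lines the medians of autosomal rows; over all steps the low row was a notch in all 4 libraries, with medians of 40.1, 2.81, 3.60 and 7.67, and in the 39 steps WT H3K36me2 stayed low over the 10 rows on the low side.

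The same low row was depleted in the libraries that the rule did not use. H3K36me2 in K36M went from a median of 2.81 scaled reads (interquartile range 1.40 to 6.63) in the low row to 8.66 (6.16 to 22.8) in the high row. H3K27me3 in WT went from 3.60 (1.42 to 14.1) to 9.16 (3.82 to 20.7), and H3K27me3 in K36M from 7.67 (4.43 to 18.9) to 30.4 (18.9 to 46.2). All 3 medians were lower in the low row, although the quartile ranges of the WT H3K27me3 rows overlapped widely.

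The step within a library, log2 of (high row + 0.5) over (low row + 0.5), depends on that library's scale factor through the added 0.5 alone. Its median was 2.33 for WT H3K36me2, which the rule fixes. The K36M H3K36me2 library had a median step of 2.83-fold, the WT H3K27me3 library one of 0.95 on the log2 scale and the K36M H3K27me3 library one of 1.63. H3K36me2 in K36M was at least 2-fold higher in the high row at 507 steps (67.5%), against 7.55% of all adjacent autosomal pairs oriented the same way, from less to more WT H3K36me2. That count was 522 with 1 read added in each library, where no scale factor enters, but 182 of 700 over 3-row means, so it belongs to the adjoining rows. It was 76 with 21 scaled reads added. A high row below the added value cannot reach 2-fold, and the median K36M high row was 8.66, so that setting fixes a low count in advance. H3K27me3 was at least 2-fold higher in the high row at 365 steps in WT (48.6%, background 9.13%) and at 546 in K36M (72.7%, background 11.1%). Opposite steps of H3K27me3 in WT, at least 2-fold lower in the high row, were found at 73 steps (9.72%), a share near the background of 7.75%, and in K36M at 19 (2.53%, background 2.02%). WT H3K27me3 was higher by any amount in the low row at 175 steps (23.3%, background 46.9%) and K36M H3K27me3 at 85 (11.3%, background 37.6%). At 295 steps (39.3%, background 1.8%) all 4 libraries were at least 2-fold lower in the low row, and 217 of these 295 had fewer than 20 reads in a library. The rule fixes the WT H3K36me2 part of this condition at every step, whereas 10.1% of the background pairs met that part. The share and its background are therefore not like for like.

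The shares with 2-fold higher H3K27me3 were close to those of other large differences in WT H3K36me2. These were 6122 other adjacent pairs at least 3-fold apart, the shortest distance the rule allows. On the side with more WT H3K36me2, 51.0% had a 2-fold higher WT H3K27me3 and 70.5% a 2-fold higher K36M H3K27me3. K36M H3K36me2 was 2-fold higher there at 57.5%, below the 67.5% of the steps. The median WT H3K36me2 step of these pairs was also smaller, 1.83 against 2.33. The 68 pairs just inside the rule (high row 150 to 160, low row 40 to 50) had median steps of 0.65 for K36M H3K36me2, 0.31 for WT H3K27me3 and 0.98 for K36M H3K27me3, and the 146 pairs just outside (140 to 150 and 50 to 60) had 0.46, 0.03 and 0.49.

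**Figure D2:**
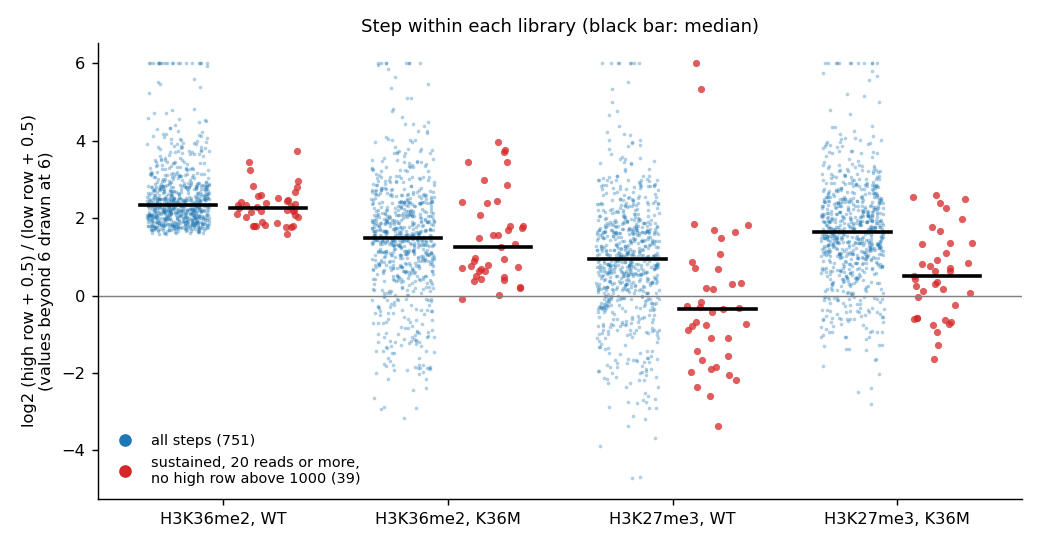
Step within each library, log2 of (high row + 0.5) over (low row + 0.5), on the vertical axis for the 4 libraries on the horizontal axis; each point is 1 step, values beyond 6 are drawn at 6, and black bars are medians. All 751 steps are blue and the 39 sustained steps red; the median for WT H3K27me3 was 0.95 over all steps and -0.35 over the 39, which were kept for having H3K27me3 reads in both rows.

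The size of the WT H3K27me3 step depended on which low rows were kept. In the 337 steps with at least 20 reads in both rows of every library, the median WT H3K27me3 step was 0.25, but this filter asks for H3K27me3 reads in the low row and so removes steps in which the mark is absent there. In the 538 steps with at least 20 reads in the H3K36me2 libraries alone, a filter that does not use H3K27me3, it was 0.60. The K36M H3K27me3 step was 1.03 and 1.32 in these sets. Among the 337, WT H3K27me3 was at least 2-fold higher in the high row at 28.2% and at least 2-fold lower at 20.5%, and among 2177 other pairs at least 3-fold apart under the same filter at 31.8% and 17.7%. Both directions were thus about as common at other strong differences in WT H3K36me2.

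In sustained steps the order of WT H3K27me3 also followed the filter. Of the 77 sustained steps, 46 had at least 20 reads in both rows of every library, and 39 of those, on 15 chromosomes, also had no high row above 1000 scaled reads. A lone high row with low rows on both sides was still among the 39. It lay on chromosome 17 at 39980001 to 39990000 and held 413 scaled reads of WT H3K36me2 and 304 of WT H3K27me3. In the 39, median WT H3K27me3 lay between 20.1 and 25.6 in the 4 rows nearest the step on the low side, was 16.5 in the high row and was between 4.09 and 7.30 in the rows beyond it. The step between the adjoining rows had a median of -0.35, with 13 of 39 at least 2-fold lower in the high row and 8 at least 2-fold higher. With the read filter on the H3K36me2 libraries alone, 56 sustained steps without high rows above 1000 remained, and the median was 0.16, with 15 at least 2-fold lower and 15 at least 2-fold higher. Over all 77 it was 0.68. No direction of WT H3K27me3 is therefore given for sustained steps as a class, and the 39 are described as steps with measurable H3K27me3 in the low row.

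In K36M the H3K27me3 contrast across those 39 steps was not directed towards the low side near the step. Medians were 23.6 to 36.9 in the 4 nearest rows on the low side, 38.1 in the high row and 30.7 to 33.0 in the next 2 rows. From row 4 to row 10 on the high side they were 17.8 to 25.8. The adjoining-row step had a median of 0.50, with 2 steps at least 2-fold lower in the high row and 12 at least 2-fold higher. Rows 4 to 10 on each side, which neither the rule nor the 3-row condition used, could be measured at 34 of the 39: H3K27me3 there was lower on the high side at 21 steps in WT and at 24 in K36M, with median steps of -0.52 and -0.44. In 47 of the 56 it was lower on the high side at 26 in either line, with medians of -0.23 and -0.12. Over all 576 steps with these rows measured it was lower there at 316 in either line, with medians of -0.15 and -0.07.

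Residual H3K36me2 in K36M was higher on the high side of most sustained steps, but its sharpest rise often lay elsewhere. Medians in the 39 were 4.45 to 5.77 scaled reads in the 10 rows on the low side, 9.67 in the high row and up to 18.0 further in, against an autosomal median of 6.24. The quartiles on the high side reached far higher than the medians, as the profiles around steps show. The step between adjoining rows was at least 2-fold at 20 of 39 steps and was in the opposite direction beyond 2-fold at 0 of 39, against 23 and 6 of the 56. In rows 4 to 10 it was positive at 28 of 34 steps, with a median of 1.43, beside 1.54 for WT H3K36me2. Over all 576 steps with these rows measured it was positive at 323, with a median of 0.07, beside 0.20 for WT H3K36me2. Of the 19 junctions between neighbouring rows within 10 rows of each of these 34 steps, the steepest rise of K36M H3K36me2 fell exactly on the WT step at 14 steps, that of WT H3K27me3 at 2 and that of K36M H3K27me3 at 6.

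H3K27me3 rose more on the high side of the steps than on the low side. In the low rows the median log2 ratio of K36M over WT was 0.88 (1.84-fold), and in the high rows 1.58 (2.99-fold), beside 1.90 in all autosomal rows. A rise of at least 2-fold was found in 336 low rows (44.7%) and 555 high rows (73.9%), counted per step, against a background of 76.3% of autosomal rows. In the 337 steps with at least 20 reads the shares were 24.0% of low rows and 62.6% of high rows. In the other 414 steps they were 61.6% and 83.1%. Low rows were thus below the background, which has no read filter, in both sets. High rows were below it in the first set and above it in the second. With every library divided by its read total in place of the deposited factor, the median over all steps turned to -0.46 in the low rows. It was 0.24 in the high rows, so the direction in low rows rests on the deposited factors.

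The factors enter the difference between the sides through the added value alone. With 1 read added in each library they cancel, and the median change was then 0.64. On the scale used here, the K36M step of H3K27me3 minus the WT step had a median of 0.72, or 1.65-fold, and was positive at 635 of 751 steps (84.6%), against 62.6% of all adjacent pairs. It was at least 2-fold larger in K36M at 280 steps (37.3%, background 8.22%) and at least 2-fold smaller at 10 (1.33%, background 1.89%). Its median was positive on each of the 19 chromosomes, from 0.43 to 1.03. In the 39 sustained steps the median was 0.85 and 35 were positive, and in the 56 it was 0.86 and 50 were positive. Among the 6122 other pairs at least 3-fold apart the median was 0.49 and 25.6% were at least 2-fold larger in K36M. A larger H3K27me3 step in K36M was thus shared with other strong differences in WT H3K36me2.

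**Figure D3:**
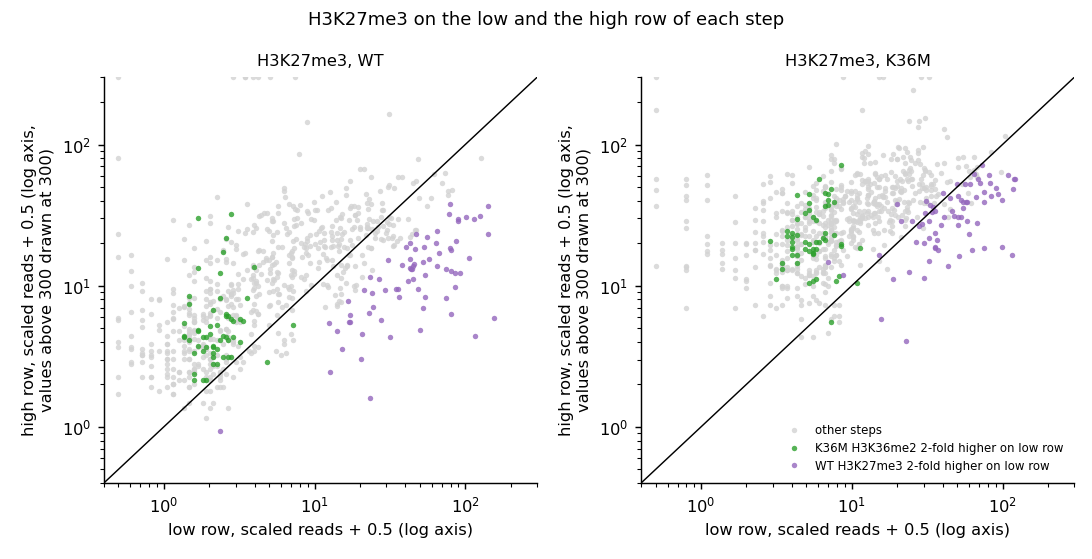
H3K27me3 in the high row (vertical axes) against the low row (horizontal axes), both as scaled reads + 0.5 on log axes, in WT (left) and K36M (right); each point is 1 step, the line marks equal values, and values above 300 are drawn at 300. Purple marks the 73 steps with at least 2-fold more WT H3K27me3 in the low row. Green marks those with at least 2-fold more K36M H3K36me2 in the low row (2 steps in both groups are purple), and grey the others. In K36M the purple points lie closer to the line, but the WT contrast chose them, so this difference between the lines is a description.

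H3K36me2 fell on both sides. The median log2 ratio of K36M over WT was -4.44 in the high rows (21.8-fold lower) and -3.39 in the low rows (10.5-fold lower), with -3.08 over all autosomal rows. A fall of at least 2-fold was found in the high row at 737 steps (98.1%) and in the low row at 587 (78.2%), against a background of 93.2%. In the 337 steps with at least 20 reads these numbers were 336 (99.7%) and 318 (94.4%). In the other 414 steps, with fewer than 20 reads in at least 1 library of either mark, the low row fell by that much at 269 (65.0%). The shortfall was not confined to rows poor in H3K36me2 reads. In the 538 steps with at least 20 reads in the H3K36me2 libraries alone, the low row fell by that much at 383 (71.2%). Because the WT values chose the rows, the difference between the sides is a description. Scaled to library totals the medians were -1.22 and -0.16.

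A group of 73 steps, on 18 chromosomes, bordered rows rich in H3K27me3 in WT. They are those with at least 2-fold more WT H3K27me3 in the low row, so the WT contrast itself is what chose them, and 69 of them had at least 20 reads in every library. Median WT H3K27me3 in them was 46.2 in the low row and 11.8 in the high row. In K36M these medians were 49.6 and 30.7: the low rows had a median log2 ratio of -0.08, with a rise of at least 2-fold in 1 of 73, while the high rows had 1.29, with such a rise in 54 (74.0%, background 76.3%). The contrast remained towards the low row in K36M at 61 of 73 steps but was at least 2-fold at 19. Scaled to library totals, the median log2 ratios were -1.42 in the low rows and -0.05 in the high rows. The rise in the high rows and the level low rows thus rest on the deposited factors. On the low side the enrichment in WT reached beyond the step, with medians of 46.2, 39.5, 33.6 and 27.1 in rows 2 to 5 from the step.

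The steps with the most H3K27me3 show this pattern row by row. On chromosome 6 at 51120001 to 51140000 the low row held 153 scaled reads of WT H3K27me3 and 114 of K36M H3K27me3, and the high row 5.45 and 15.9. H3K36me2 there was 38.8 in the low and 155 in the high row in WT, and 5.15 and 9.91 in K36M. On chromosome 7 at 86650001 to 86670000, H3K27me3 in the low row was 141 in WT and 120 in K36M, and in the high row 36.3 and 56.6. In both places the low row had less H3K27me3 in K36M than in WT and the high row more, on the deposited scale. These rows were picked for their high WT H3K27me3, so that order is a description. On chromosome 19 at 43690001 to 43710000, a sustained step, the low row held 140 and 117 and the high row 22.9 and 47.8.

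A second group of 58 steps, on 14 chromosomes, had more H3K36me2 in K36M in the low row than in the high row, by at least 2-fold. This share of 7.72% is near the background of 5.17%, and the group was chosen on the K36M values after they were seen. Median H3K36me2 in the low rows was 45.5 in WT and 50.4 in K36M, where the autosomal median was 6.24, and in the high rows 189 and 15.3. The opposite order of the rows in the lines is what the choice of the group fixes. Over all 751 steps, which were not chosen on K36M, the K36M value was above the WT value in the low row at 86 (11.5%), against 2.08% of autosomal rows, and in the high row at 0. The rule caps WT H3K36me2 in the low row, so this difference from the background is a description.

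These low rows held little H3K27me3 in either line. The median was 1.74 in WT and 5.02 in K36M, against autosomal medians of 5.67 and 28.6, and in the high rows 3.82 and 19.8. With such low values, 8 of the 58 steps had at least 20 reads in every library, and the WT low row held a median of 16 H3K27me3 reads. The K36M H3K36me2 enrichment extended beyond the low row, with medians of 51.2, 37.4 and 23.0 in rows 2 to 4 from the step, while WT H3K36me2 rose over the same rows from 76.3 to 109 and 137. On chromosome 9 at 13640001 to 13660000 the low row held 47.1 scaled reads of H3K36me2 in WT and 107 in K36M, and the high row 174 and 39.5. On chromosome 8 at 24040001 to 24060000 the corresponding values were 49.6 and 89.3, and 169 and 32.8. H3K27me3 in these low rows was 1.96 and 3.05 in WT, and 7.97 and 7.08 in K36M. Scaled to library totals, H3K36me2 in the low rows of the group was higher in K36M, with a median log2 ratio of 3.39.

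**Figure D4:**
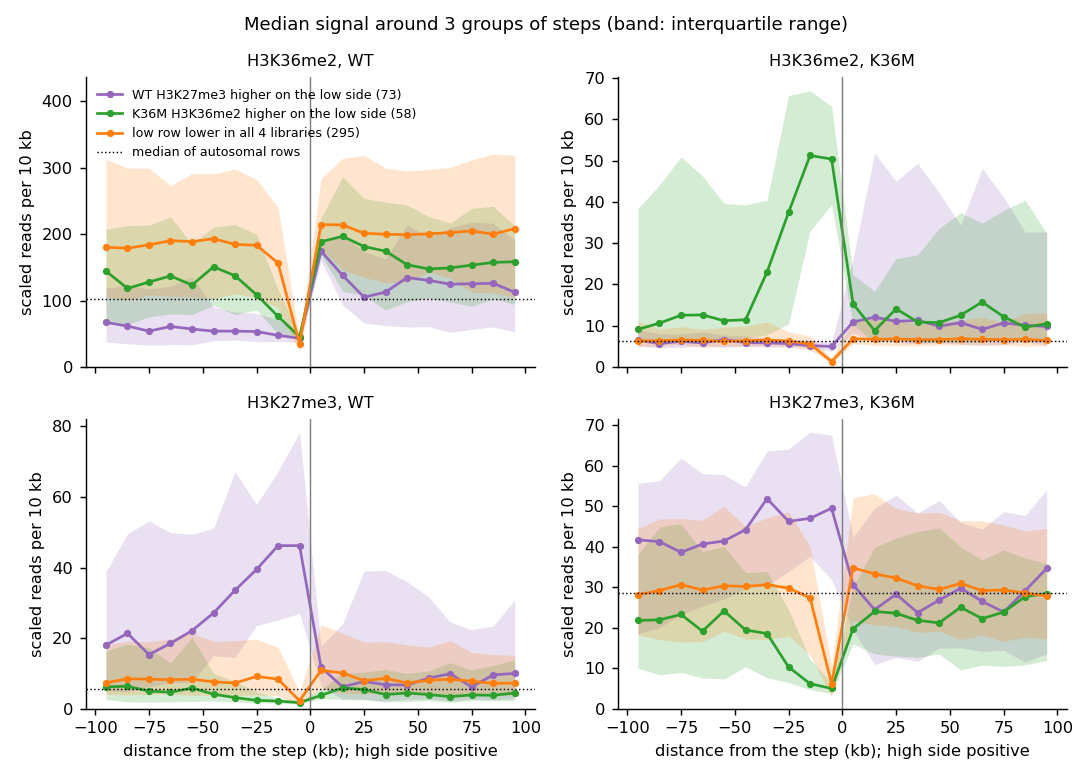
Median scaled reads per 10 kb row (vertical axes) against distance from the step in kb (horizontal axes, high side positive) for 3 groups of steps, with interquartile bands and the autosomal median as a dotted line. Purple steps (73) carry WT H3K27me3 on the low side that extends over several rows, green steps (58) carry K36M H3K36me2 there with medians of 50.4 and 51.2 in the first 2 rows, and orange steps (295) show a notch of 1 row in all libraries.

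Some steps were single extreme rows. In 11 steps on 6 chromosomes the high row exceeded 1000 scaled reads of WT H3K36me2, and in all 11 the high row also exceeded the low row in the other 3 libraries. The row on chromosome 2 at 98500001 to 98510000 held 949818 scaled reads of H3K36me2 in WT, 53088 in K36M, 22936 of WT H3K27me3 and 77332.5 of K36M H3K27me3, and it formed a step with each neighbour. A row on chromosome 6 at 103590001 to 103600000 held 133031, 4314, 2142 and 5252. These 2 rows had low rows on each side in WT H3K36me2. Others were runs: on chromosome 9 the stretch from 3000001 to 3040000 had a mean of 23335, and on chromosome 18 the stretch from 3000001 to 3020000 a mean of 1412. Leaving out the steps of the chromosome 2 row moved no median step by more than its spread over chromosomes.

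Named steps were taken from 25 steps, on 14 chromosomes, with at least 20 reads in both rows of every library and 10-row means of WT H3K36me2 at 150 or more and under 50. This choice asks for H3K27me3 reads in both rows. Over 10-row means, H3K27me3 was lower on the high side at 15 of 25 in WT and at 13 in K36M, and the step rose from WT to K36M at 19. In 5 of the 25 the high row exceeded 1000, and the 10-row mean can then rest on that row. Among the other 20, the counts were 14, 12 and 18. Between adjoining rows, the same directions were found at 46.9%, 37.6% and 62.6% of all adjacent pairs. No such share is given for 10-row means, so these counts are descriptions. Besides the spikes on chromosomes 2 and 6, the widest WT H3K36me2 differences were on chromosomes 19, 9, 3 and 7.

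The largest change of the H3K27me3 step over 5-row means among the 25, 2.48, was on chromosome 3 at 29620001 to 29640000, with the high side to the right. The 10-row mean of WT H3K36me2 went from 36.6 on the low side to 289 on the high side, and in K36M from 4.32 to 5.12, a ratio of 1.18 (1.06 to 1.33). H3K27me3 in WT went from 50.2 to 12.0, 4.19-fold lower on the high side (3.92 to 4.48). In K36M it went from 41.8 to 57.6, a ratio of 1.38 (1.29 to 1.48). The H3K27me3 contrast was thus turned round, with almost no H3K36me2 contrast remaining.

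On chromosome 13 at 55110001 to 55130000, where the change over 5-row means was 2.35, both contrasts persisted. WT H3K36me2 went from 40.1 to 156 and K36M H3K36me2 from 5.61 to 66.5, 11.9-fold (11.0 to 12.8). H3K27me3 was 19.6-fold lower on the high side in WT (17.5 to 22.0), at 3.55 against 69.7, and 3.36-fold lower in K36M (3.06 to 3.69), at 17.2 against 57.6. The H3K36me2 contrast was thus wider in K36M than in WT, where the ratio was 3.88 (3.55 to 4.24), and the H3K27me3 contrast narrower. Chromosome 9 at 24340001 to 24360000, whose high row is a spike of 1852, had H3K27me3 4.78-fold lower on the high side in WT (4.48 to 5.12) and 2.09-fold lower in K36M (1.94 to 2.25).

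**Figure D5:**
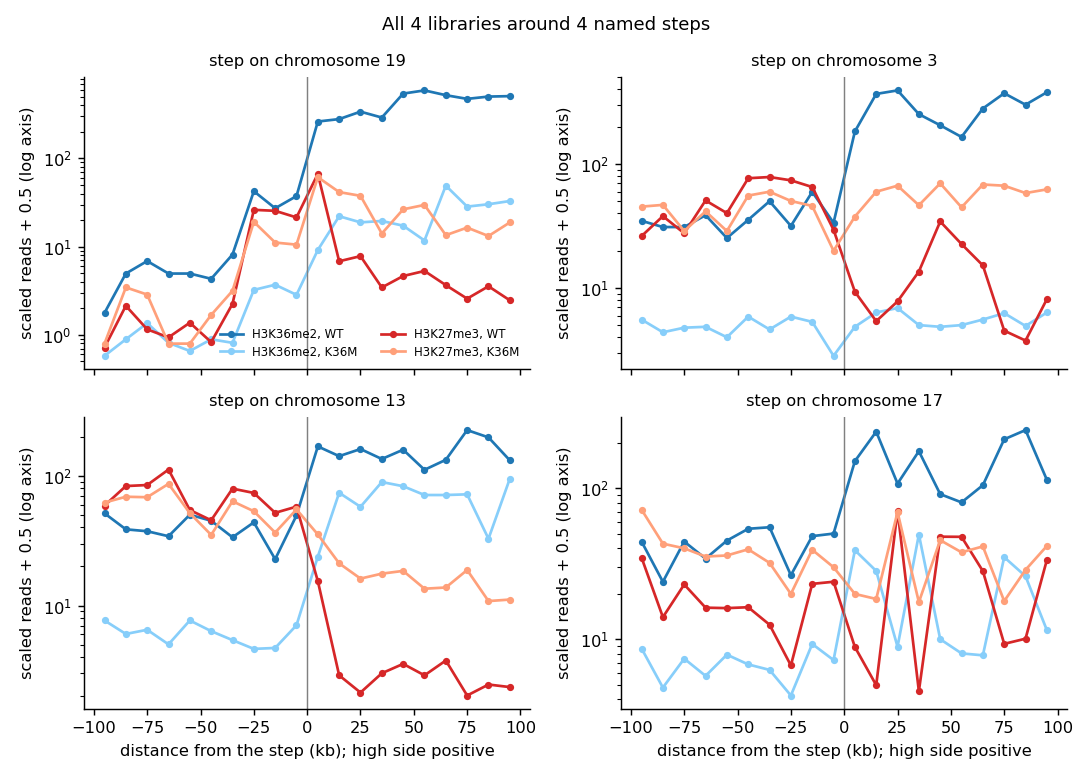
Scaled reads + 0.5 per 10 kb row (vertical axes, log scale) against distance from the step in kb (horizontal axes, high side positive) for the named steps on chromosomes 19, 3, 13 and 17, with H3K36me2 in blue and H3K27me3 in red, WT dark and K36M light. On chromosome 13 the residual K36M H3K36me2 is high throughout the high side, with a 10-row mean of 66.5, whereas on chromosome 3 it is flat across the step.

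On chromosome 19 at 9210001 to 9230000 WT H3K36me2 went from 13.8 to 430, and in K36M from 1.08 to 23.4. H3K27me3 went from 7.74 to 10.2 in WT, a ratio of 1.32 (1.19 to 1.46), and from 4.93 to 26.8 in K36M, a ratio of 5.43 (4.60 to 6.44). All libraries were low on the far part of the low side, where WT H3K36me2 fell to 1.27 in a row. On chromosome 7 at 26680001 to 26700000 the H3K27me3 contrast was small in both lines, 1.51-fold lower on the high side in WT (1.43 to 1.60) and 1.29-fold lower in K36M (1.19 to 1.39).

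The largest falls of the H3K27me3 step over 5-row means were at the chromosome 6 spike (-2.06) and on chromosomes 17 (-0.64) and 11 (-0.35). On chromosome 17 at 55990001 to 56010000 H3K27me3 was 18.2 on the low and 26.1 on the high side in WT, and 38.2 and 33.3 in K36M. Rows on the high side alternated, which was seen on looking at the rows. The 5 rows with 151 to 242 scaled reads of WT H3K36me2 held 4.03 to 9.59 of WT H3K27me3, and the 5 with 80.1 to 113 held 27.8 to 70.7. In K36M the former rows held 17.1 to 28.3 of H3K27me3 and 25.7 to 48.9 of H3K36me2, and the latter 37.2 to 69.0 and 7.33 to 11.0, so neither mark overlapped between the row classes in that line. On chromosome 11 at 82890001 to 82910000 the ratio of high to low side over 10-row means was 1.02 in WT (0.960 to 1.08) and 1.08 in K36M (1.01 to 1.15). The low-side mean there takes in nearly empty rows, with 1.27 to 6.36 scaled reads of WT H3K36me2 and 0.654 to 2.51 of WT H3K27me3. Over 5-row means H3K27me3 was lower on the high side of this step, with log2 steps of -0.54 in WT and -0.88 in K36M. At these steps WT H3K36me2 was 3.59-fold and 3.79-fold higher on the high side. The small 10-row H3K27me3 ratio on chromosome 17 averages rows that differ widely, and its adjoining rows went from 23.5 to 8.39 in WT.

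Steps occurred on all 19 autosomes, from 1.65 per 1000 adjacent pairs on chromosome 16 to 4.73 on chromosome 11. Chromosome 11 also had 11 of the 58 steps with K36M H3K36me2 in the low row, and chromosome 5 had 10. Of the 751, 365 rose and 386 fell along the chromosome, and the change of the H3K27me3 step had a median of 0.71 in the former and 0.74 in the latter. These differed by less than the spread over chromosomes, 0.17 (SD of 19 medians).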

How the data were processed

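The deposited table holds a scaled signal per genomic interval for 4 immunoprecipitated libraries. Alignment software named per the submitters' processing notes is Bowtie 1.0.0, with mm9 and dm6 as builds; per the labels' protocols, chromatin was digested with micrococcal nuclease and Drosophila chromatin equal to 5% of the mouse chromatin was added. Another label gives equal parts, and the labels do not settle this. The sources used here do not give the factors' computation, read filters or counting. In each library 100% of the deposited signal values were whole multiples of 1 step (within 0.01 of a read), 0.636, 0.078, 0.109 and 0.295 for H3K36me2 in WT and K36M and H3K27me3 in WT and K36M, so reads were recovered by division.

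Of 253926 rows, 235757 were autosomal and 232039 of those 10 kb wide; the 3718 others were left out and interrupt runs. At thresholds of 150 and 50 the WT value rested on 235.8 and 78.6 reads, with 95% counting half-widths of 12.8% and 22.1%. Steps and K36M over WT ratios are on the log2(value + 0.5) scale, which understates changes of low rows. Background pairs were all adjacent autosomal pairs with unequal WT H3K36me2 (225301). The members, groups and lists were chosen with earlier results of these data known. The 6 steps with the largest 10-row WT H3K36me2 difference and the 3 with the largest and 3 with the smallest change of the H3K27me3 step over 5-row means were named, at most 1 per chromosome in each list; examples within groups are those with the highest defining value and were chosen after values were seen. Intervals of ratios are exact binomial intervals of the read split, and cover counting error only, as reads lacking molecular identifiers may repeat a molecule. The code was tested on simulated steps. Software was scipy 1.17.1, matplotlib 3.10.9, pandas 2.3.3, numpy 2.4.6 and Python 3.11.15.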

Additional observations from a re-analysis of the deposited data

How the results depend on the processing

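Spread here is the standard deviation over chromosomes of the median, or 1.5-fold for a count. Of 143 alternative values for 12 results, 78 stayed within it, 62 moved and 3 reversed. Counts were compared as numbers and not as shares, so a change in the size of the set can move a count by itself. With at least 20 reads, the K36M H3K36me2 count moved while its share was 66.5% against 67.5%. The count of lower WT H3K27me3 stayed while its share went from 9.72% to 20.5%. Leaving out a replicate was not possible with 1 library per group. No paired analysis was possible because each group has 1 library. The settings based on sustained steps with further conditions, the read filter on the H3K36me2 libraries alone, the pseudocount of 1 read, and leaving out the chromosome 2 row, were added after seeing the data. Depth limits the low rows most.

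The number of steps was 339 with a high row of 200 or more, 165 with a low row under 30, 2190 with a high row of 100 or more, 337 with at least 20 reads, 77 sustained and 433 isolated (no other step within 10 rows). In the same order of settings, WT H3K27me3 was at least 2-fold lower in the high row at 16 (4.72%), 5 (3.03%), 289 (13.2%), 69 (20.5%), 15 (19.5%) and 63 (14.5%). K36M H3K27me3 was higher at 294 (86.7%), 148 (89.7%), 1137 (51.9%), 173 (51.3%), 46 (59.7%) and 272 (62.8%). K36M H3K36me2 was higher at 264 (77.9%), 152 (92.1%), 1103 (50.4%), 224 (66.5%), 44 (57.1%) and 257 (59.4%). Means of 3 rows per side gave 113 (16.1%), 160 (22.9%) and 182 (26%) of 700 steps for these counts. A 1.5-fold rule gave 110 (14.6%) for WT H3K27me3. A pseudocount at the 5th percentile of WT (21 for H3K36me2) gave 76 (10.1%) for K36M H3K36me2, but this value is above the median K36M high row of 8.66.

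The median K36M H3K36me2 step was 2.38 with a low row under 30, 1.02 with a high row of 100 or more, 0.27 with the 5th-percentile pseudocount, 0.47 over 3-row means and 1.92 in sustained steps over 3-row means. The WT H3K27me3 step was 1.77 with a low row under 30, 0.57 with a high row of 100 or more, 0.25 with at least 20 reads, 0.59 isolated, 0.16 over 3-row means and 0.41 sustained over 3-row means. It reversed to -0.22 in sustained steps with 20 reads and to -0.35 when high rows above 1000 were also left out; the filter on H3K27me3 reads in the low row itself removes rows poor in the mark. With the read filter on the H3K36me2 libraries alone, sustained steps without high rows above 1000 gave 0.16 for WT H3K27me3, 0.78 for K36M H3K36me2 and 0.84 for K36M H3K27me3, and all steps gave 1.32 for the last. The K36M H3K27me3 step was 2.10 with a high row of 200 or more, 2.43 with a low row under 30, 1.06 with a high row of 100 or more, 1.03 with 20 reads, 0.44 over 3-row means, 0.85 in sustained steps over 3-row means, and 0.74 and 0.50 in the last 2 sets. The change of the H3K27me3 step was 0.49 with a high row of 100 or more and 0.37 over 3-row means, and was positive under every setting run.

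K36M over WT in the high row, H3K36me2 was -2.79 with the 5th-percentile pseudocount and -1.22 with library totals; in the low row it was -2.79 in sustained steps, -1.22 with that pseudocount and -0.16 with library totals. H3K27me3 in the high row was 1.83, 1.15, 1.22 and 0.24 (high row 200, high row 100, 20 reads, library totals); in the low row it was 0.45 with 20 reads and reversed to -0.46 with library totals, which change the factors alone.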

Other observations

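Steps on both sides enclosed 22 stretches in which every row held 150 scaled reads or more of WT H3K36me2, and 123 in which every row held fewer than 50. Of the low stretches, 117 were 10 kb long and 2 reached 30 kb or more. Their median levels were 1.64 for K36M H3K36me2, 1.74 for WT H3K27me3 and 6.20 for K36M H3K27me3, all below the autosomal medians of 6.24, 5.67 and 28.6. Of the high stretches, 10 were 10 kb long, 8 reached 30 kb or more, and the longest, on chromosome 10 at 4630001 to 4950000 (mm9), spanned 320 kb. In that stretch mean H3K36me2 went from 311 in WT to 7.80 in K36M and mean H3K27me3 from 12.9 to 56.8. These stretches were chosen by WT H3K36me2, and no test was made on them.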
